A study of Homo sapiens with 6 samples.

Results

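The Src family kinases SRC, FYN, LYN, YES1, FGR and LCK, their inhibitor CSK, and the ubiquitin ligases CBL and CBLB were examined in U373, a human glioblastoma cell line carrying an inducible syk construct. All probe sets whose annotation gave exactly 1 of these 9 symbols were taken, which gave 19 probe sets for 9 genes, of 12558 probe sets and 8226 named genes on the Affymetrix Human Genome U95 Av2 array. Messenger RNA was measured on 6 arrays, each a group of its own: syk-transfected cells given ethanol and PonA at day 1 and at day 2, syk-transfected cells given ethanol at day 1, syk-transfected untreated cells at day 1 and at day 2, and untransfected untreated cells at day 1. PonA, a plant-derived ecdysteroid, activates the receptor of an ecdysone-inducible expression system and was used at 10 µM together with ethanol. No condition was repeated, nothing in the labels states that cultures were independent, no untransfected cells received PonA, and day 2 had no ethanol array. The labels give 1 span of hours of PonA for all samples, so the time under PonA on each array is not known, and whether the transfected cells are 1 clone is not stated.

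Src family kinases are membrane-anchored tyrosine kinases. In immune cells they phosphorylate the tails of antigen and Fc receptors, which creates the docking sites for SYK, and in most other cells SRC, FYN and YES1 act at focal adhesions and growth factor receptors. CSK holds the family in check by phosphorylating a tyrosine in the kinases' tails. CBL and CBLB are RING-type ubiquitin ligases that bind activated tyrosine kinases and receptors, SYK among them, and mark them for turnover. LCK and FGR are best known from lymphocytes and from myeloid cells.

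FYN and CBLB were the members with probe sets whose PonA arrays lay above every other array, and the sequence around their transcription starts is shown for that reason. The windows cover 250 bases before to 50 after the RefSeq start in GRCh38.p14, 5′ to 3′ on the minus strand for both genes, at chr6:111873403-111873702 for FYN and chr3:105869352-105869651 for CBLB. Capitals mark the GC box GGGCGG on either strand, a motif that Sp1-type factors bind.
FYN: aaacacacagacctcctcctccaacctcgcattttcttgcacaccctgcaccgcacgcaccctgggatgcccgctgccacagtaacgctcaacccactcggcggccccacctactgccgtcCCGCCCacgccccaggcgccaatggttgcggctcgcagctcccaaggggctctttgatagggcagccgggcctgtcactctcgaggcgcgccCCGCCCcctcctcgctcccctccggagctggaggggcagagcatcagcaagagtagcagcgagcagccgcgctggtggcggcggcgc
CBLB: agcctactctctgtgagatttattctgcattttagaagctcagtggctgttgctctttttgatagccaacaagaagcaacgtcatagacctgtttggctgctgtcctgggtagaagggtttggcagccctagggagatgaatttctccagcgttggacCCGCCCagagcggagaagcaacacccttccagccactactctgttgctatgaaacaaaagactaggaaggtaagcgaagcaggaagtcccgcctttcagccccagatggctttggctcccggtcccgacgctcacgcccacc
FYN holds 2 GC boxes and 1 CCAAT box (CCAAT), and CBLB holds 1 GC box and no CCAAT box. Of 35116 RefSeq promoter windows of 300 bases, 45.0% hold a GC box and 34.6% a CCAAT box, counting both strands. The GC content is 69.0% for FYN and 53.0% for CBLB, against a median of 58.7% over all windows. The half-site AGGTCA, which many nuclear receptors bind, the AP-1 motif TGACTCA and the TATA motif TATAAA were not found in the windows of FYN, CBLB, YES1, FGR, LCK or CSK. These letters occur in 13.8%, 4.95% and 11.5% of all windows for the half-site, AP-1 and TATA. The ETS core CCGGAAG occurs once in the YES1 window, in none of the other windows read, and in 10.3% of all windows. The motifs found in these windows do not overlap each other, and none of these matches says whether a factor binds.

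Where a gene has several probe sets, they are called the first, the second and so on in falling order of their mean signal over the 6 arrays. Levels are MAS5 signal, Affymetrix's single value per probe set on a linear scale. A signal was called above the floor when it exceeded the 40th percentile of its array, which lay between 22.7 and 26.5. Of the 19 probe sets, 11 were above the floor on all 6 arrays, 4 on some and 4 on none. CSK, LYN, SRC, FYN, YES1, FGR and CBLB each had at least 1 probe set above the floor on every array. CBL and LCK did not. The single CBL probe set lay between 7.33 and 20.9 and never exceeded the floor, so no CBL level was measured, and the third CBLB probe set, at 1.26 to 12.9, gave none either. Between arrays, Pearson r over all probe sets was 0.946 to 0.985 on the floored log2 scale. Of 9 astroglial and glioma markers on the array, 5 were above the floor on all arrays, among them VIM at 4919 to 6458, and AQP4 was under it on all. In the same list SLC1A3 was at 193 and 225 on the PonA arrays, against 22.8 to 38.8 on the transfected arrays without PonA, and GLUL at 1306 and 1434, against 531 to 993. SLC1A3 and GLUL were thus high on the same arrays as FYN and CBLB. CD44 was higher there by less, at 1802 and 2129 against 1326 to 1785. FABP7 went the other way, at 1505 and 1638 with PonA against 1647 to 2185. The summed signal of the astroglial list was 11318.5 and 10676 on the PonA arrays, against 9655 to 10714 on the transfected arrays without PonA. The part of these markers in the results was not tested. Of 11 haematopoietic markers 7 were under the floor on every array, including PTPRC, CD14, ITGAM and SPI1, while CD3E (58.7 to 83.2), CD2 (24.9 to 35.7), CD34 (80.1 to 113) and HBB (27.8 to 44.0) were above it on all 6. The summed signal of the list lay at 248 to 318 on the PonA arrays, 230 to 291 on the transfected arrays without PonA and 267 in untransfected cells.

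The effect of PonA was estimated with limma on log2 signal over the 5 arrays of transfected cells (2 had PonA, 3 had none), with a term for day. Values under the floor were set to it, and 13 of the 19 probe sets, which exceeded the floor on 2 or more of those arrays, were tested among 7934. None of the 13 passed an adjusted p of 0.05 (Benjamini-Hochberg over all 7934), while 402 of all probe sets did (5.07%), 2.70% higher and 2.37% lower with PonA. At an unadjusted p under 0.05 there were 4 of 13, 3 of FYN and 1 of CBLB, against 1548 of 7934 (19.5%). The median log2 effect was 0.17 over the 13 and 0.0054 over all probe sets tested, and 10 of the 13 were positive. Several of the 13 read the same gene. Over all genes, each by its brightest probe set, 2907 of 5718 effects were positive. With 5 arrays, 2 residual degrees of freedom were left, made up of the difference between ethanol and no treatment at day 1 and the difference of the PonA effects between the days, so the p-values do not measure spread between repeated cultures. In such bulk RNA, a change in the number of cells of a kind and a change of RNA per cell cannot be told apart.

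**Figure D1:**
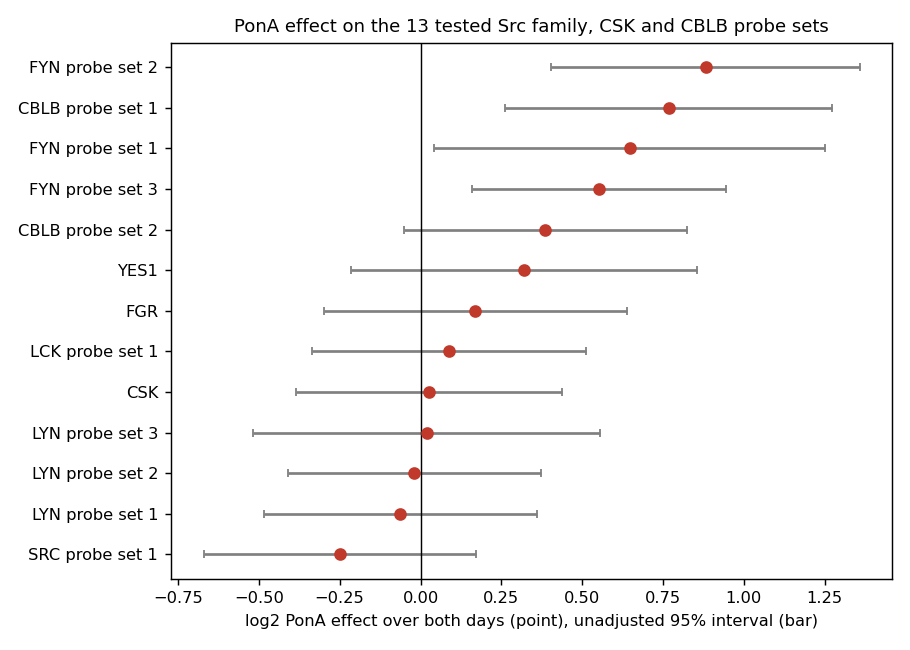
Log2 PonA effect over both days (points) with the unadjusted 95% interval of the limma fit (bars) for the 13 tested probe sets, named by gene and by order of mean signal. The FYN and CBLB probe sets fill the top 5 places, with the second FYN probe set at 0.88 and the first SRC probe set lowest at -0.25.

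FYN, a kinase of adhesion and of neural and lymphoid signalling, had the largest effect among the members. On the second FYN probe set the signal was 542 with PonA at day 1 and 559 at day 2, against 369.5 with ethanol at day 1, 291 untreated at day 1 and 262 untreated at day 2, and 354 in untransfected cells. Both PonA arrays therefore lay above all the others, and the ethanol array lay above both untreated ones. The log2 effect was 0.88 ± 0.20 (SE), a ratio of 1.84 with an unadjusted 95% interval of 1.32 to 2.56, and did not pass the threshold in limma (adjusted p = 0.0610). Of all tested probe sets, 302 had a higher effect. Across the alternative settings the adjusted p lay between 0.0144 and 0.374, and leaving out the ethanol array made it 0.0168 as the log2 effect moved to 0.99 ± 0.21 (SE).

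The first FYN probe set, the brightest, gave 672 with PonA at day 1 and 674 at day 2, against 634 with ethanol at day 1, 462 untreated at day 1 and 316 untreated at day 2, and 466 in untransfected cells. The groups did not overlap, but with ethanol alone the signal was close to that with PonA at day 1. Its log2 difference was 0.083 for PonA over ethanol, 0.54 for PonA over untreated cells at day 1 and 1.09 at day 2, and 0.46 for ethanol over untreated cells. The log2 effect over both days was 0.65 ± 0.25 (SE, adjusted p = 0.225). Leaving out 1 array of day 2, whichever of the 2, made it 0.31, since day 1 alone then sets the effect. Leaving out PonA at day 1 made it 1.09, the difference of day 2 alone. A term of its own for ethanol made it 0.22. The second FYN probe set had log2 differences of 0.55 for PonA over ethanol, 0.90 for PonA over untreated cells at day 1 and 1.09 at day 2. For ethanol over untreated cells it had 0.34, from 369.5 and 291, while untransfected untreated cells were at 354. With 1 array each, a solvent effect and variation between arrays cannot be told apart. In the fit with a term of its own for ethanol, the effect on the second FYN probe set was 0.60 ± 0.27 (SE, adjusted p = 0.366). That fit sets PonA against its solvent at day 1 and assumes the same solvent effect at day 2, which had no ethanol array.

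The third FYN probe set was dim, at 38.3 with PonA at day 1 and 63.2 at day 2, against 23.9 with ethanol and 23.9 untreated at day 1, both under the floor, and 43.8 untreated at day 2. It gave 35.6 in untransfected cells. The PonA array of day 1 lay under the untreated array of day 2, so these groups overlapped. At day 1 it was higher with PonA than with ethanol by at least 1.51-fold, and than in untreated cells by at least 1.46-fold, and the log2 effect over both days was 0.55 ± 0.16 (SE, adjusted p = 0.122). The fourth was above the floor with ethanol (29.1) and in untransfected cells (34.4), but under it on both PonA arrays, and was not tested. The first and the second FYN probe sets carry Affymetrix's ending s_at and the fourth r_at. These mark probe sets that may read more than 1 transcript or broke a design rule, so signal from a related transcript is not separated. The ending s_at is also carried by the CSK probe set, the first and the third LCK probe sets, the third LYN and the third CBLB probe set.

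CBLB, the ligase best known for restraining T cell activation, followed FYN. The first CBLB probe set gave 76.3 with PonA at day 1 and 69.3 at day 2, against 58.7 with ethanol at day 1, 44.5 untreated at day 1 and 34.2 untreated at day 2, and 62.0 in untransfected cells. The PonA arrays were again above the others, with ethanol next among the transfected cells. The log2 effect was 0.77 ± 0.21 (SE), a ratio of 1.70 with an unadjusted 95% interval of 1.20 to 2.42, and did not pass (adjusted p = 0.103). Without the ethanol array it was 0.90 ± 0.21 (SE, adjusted p = 0.0272), and with a separate ethanol term 0.44 ± 0.27 (SE, adjusted p = 0.550). With the floor raised to the 60th percentile it was 0.068 ± 0.13 (SE, adjusted p = 0.808).

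The second CBLB probe set gave 69.5 with PonA at day 1 and 61.3 at day 2, against 58.6 with ethanol, 47.0 untreated at day 1 and 47.7 untreated at day 2, and 55.3 in untransfected cells. Among transfected cells of day 1 it kept the same order as the first, in closer steps. Its log2 effect was 0.39 ± 0.18 (SE, adjusted p = 0.318), and 0.20 with a separate ethanol term. Ethanol over untreated cells was 0.40 on the log2 scale for the first CBLB probe set and 0.32 for the second, and PonA over ethanol 0.38 and 0.25. The geometric mean of 18 spike-in probe sets was, at day 1, 87.8 with PonA, 39.9 with ethanol, 76.5 untreated and 36.1 in untransfected cells, and at day 2 60.4 with PonA and 62.0 untreated. Its part in the differences of PonA from ethanol, of ethanol from no treatment and of transfected from untransfected cells was not tested.

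**Figure D2:**
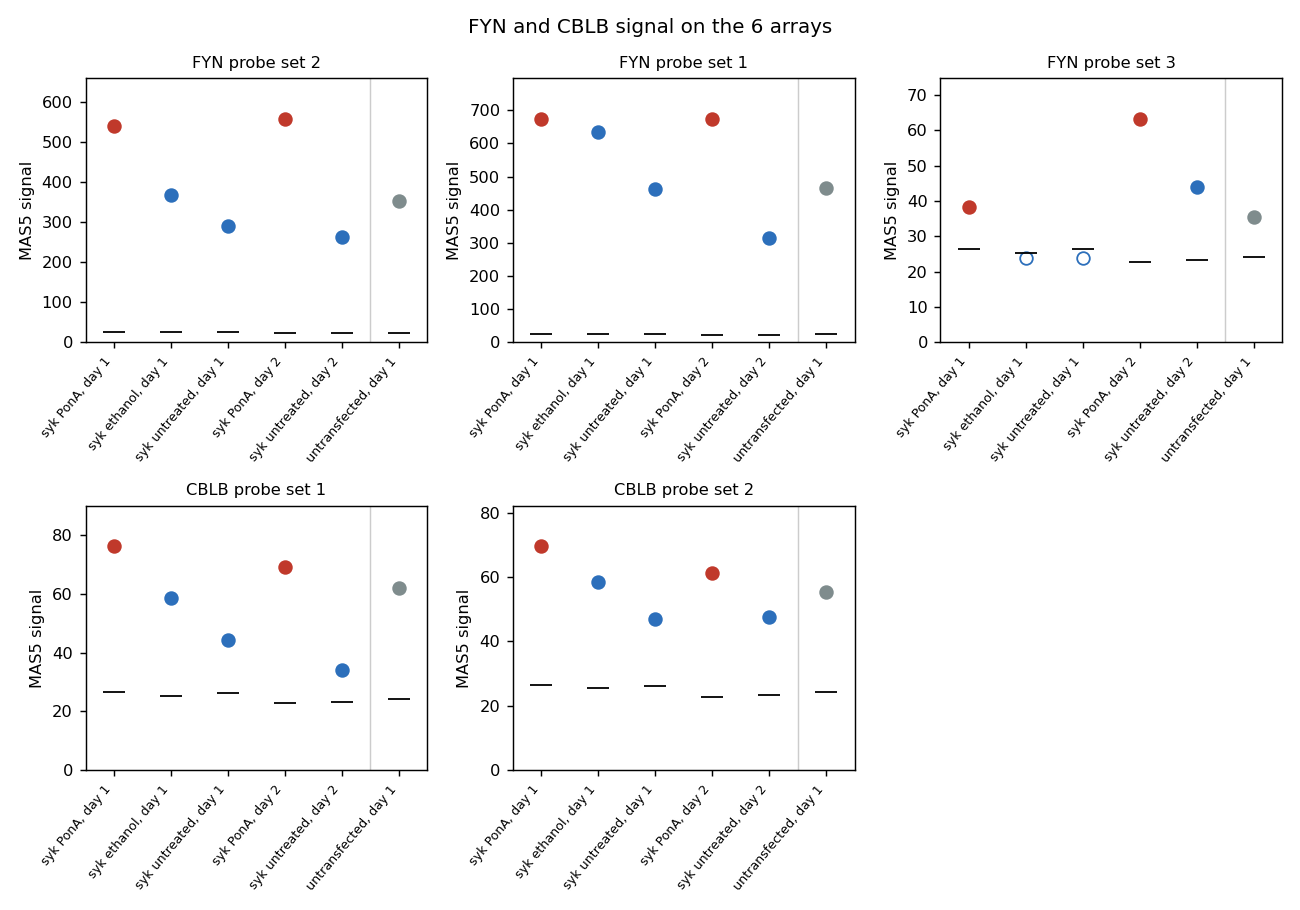
MAS5 signal (linear axis from 0) of 3 FYN and 2 CBLB probe sets on each array, with PonA in red, transfected cells without PonA in blue and untransfected cells in grey; black ticks are the floor of each array and open circles lie under it. In the first and the second probe set of each gene both PonA points lie above the 3 blue ones.

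Both PonA arrays lay above the 3 transfected arrays without PonA in 4 of the 13 tested member probe sets, which belong to 2 genes, and in 1315 of all 7934 (16.6%). None of the 13 had both PonA arrays below, as 1223 of all had (15.4%). At day 2, 3 member probe sets, 2 of FYN and 1 of CBLB, were at least 2-fold higher with PonA than untreated, of 12 above the floor on a side, as were 4.67% of all probe sets (8.71% were 2-fold apart in either direction). No member was 2-fold apart at day 1, from ethanol (5.62% of all probe sets were, 3.23% higher) or from untreated cells (6.71%, 3.58% higher).

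Of the other Src family kinases active in most cells, YES1, a close relative of SRC, gave 198 with PonA at day 1 and 245 at day 2, against 167 with ethanol at day 1, 216 untreated at day 1 and 154 untreated at day 2. At day 1 the PonA array lay between the ethanol and the untreated one, while at day 2 it was 0.67 above untreated cells on the log2 scale. Its log2 effect was 0.32 ± 0.22 (SE, adjusted p = 0.502), with a ratio between 0.862 and 1.81 in the unadjusted 95% interval. The effect was 0.060 when 1 array of day 2 was left out, whichever of the 2, and 0.67 when PonA at day 1 was left out. SRC, the founding member, gave 71.5 with PonA at day 1 and 50.9 at day 2, against 76.7 with ethanol, 77.3 untreated at day 1 and 69.2 untreated at day 2 on the first SRC probe set. The day 1 PonA array was among the controls and the day 2 array was the lowest of all 6. Its log2 effect was -0.25 ± 0.18 (SE, adjusted p = 0.508), and ran from -0.44 to -0.11 when 1 array was left out. The second SRC probe set exceeded the floor only with PonA at day 1 (31.9) and in untransfected cells (27.4) and was not tested for PonA.

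LYN, a kinase that can both start and dampen SYK signalling in B cells and myeloid cells, had 3 probe sets above the floor everywhere. The first LYN probe set gave 137 and 135 with PonA at day 1 and day 2, against 133 with ethanol, 127 untreated at day 1 and 160.0 untreated at day 2. The second LYN probe set gave 119 and 107 with PonA, against 121 with ethanol, 123 untreated at day 1 and 107 untreated at day 2. In each of these the PonA arrays lay within the range of the transfected arrays without PonA. The log2 effects of the 3 LYN probe sets lay between -0.062 and 0.019, and the unadjusted 95% intervals together ran from a ratio of 0.699 to 1.47. The third LYN probe set ranged from 92.3 to 108 on the PonA arrays and from 78.6 to 111 on the transfected arrays without PonA.

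FGR, a kinase of myeloid cells, gave 140.3 with PonA at day 1 and 82.5 at day 2, against 115 with ethanol, 101 untreated at day 1 and 89.2 untreated at day 2. It was highest with PonA at day 1 and below the untreated array at day 2, and its log2 effect was 0.17 ± 0.20 (SE, adjusted p = 0.706). The haematopoietic markers named above as under the floor include those of myeloid cells, CD14, ITGAM and SPI1, each of which was at most 8.81 on every array. LCK, the T cell kinase that phosphorylates ZAP70, exceeded the floor on the first LCK probe set with PonA (32.1) and with ethanol (30.6) at day 1 only, and its log2 effect was 0.089 ± 0.18 (SE, adjusted p = 0.845). Of the T cell markers, CD3E and CD2 were above the floor on all arrays and CD3D on none. The other 2 LCK probe sets stayed at 2.66 to 19.3, under the floor on all 6 arrays.

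CSK gave 681 with PonA at day 1 and 500.1 at day 2, against 605 with ethanol, 627 untreated at day 1 and 547 untreated at day 2, and 621 in untransfected cells. The PonA arrays were the highest and the lowest of the 6. The log2 effect was 0.027 ± 0.17 (SE, adjusted p = 0.957), and the ratio had an unadjusted 95% interval of 0.766 to 1.36.

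**Figure D3:**
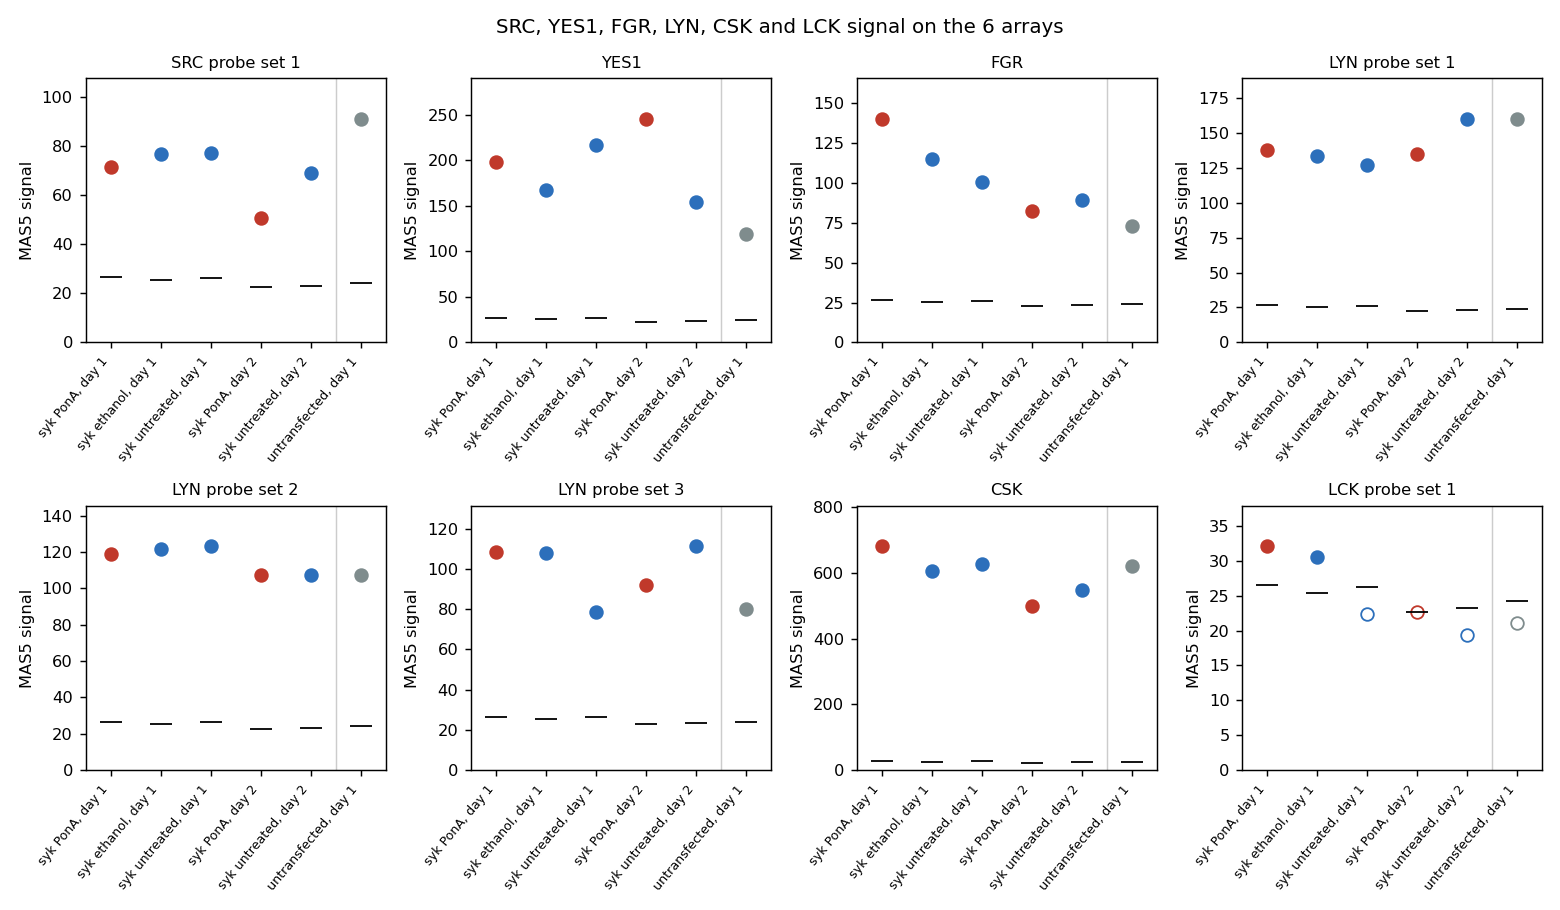
MAS5 signal (linear axis from 0) of SRC, YES1, FGR, LYN, CSK and LCK probe sets on each array, coloured as PonA in red, transfected without PonA in blue and untransfected in grey, with the floor as black ticks and open circles under it. In none of these 8 probe sets do the PonA points lie on 1 side of all blue points.

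Whether the PonA response differed between the days was tested in limma by an interaction of PonA and day, which leaves 1 residual degree of freedom. None of the 13 member probe sets passed, or had an unadjusted p under 0.05, against 0 of 7934 (0.00%) and 330 of 7934 (4.16%) over all. The largest terms were 0.78 ± 0.45 (SE) for the first FYN probe set and 0.61 ± 0.43 for YES1 in the positive direction, and -0.50 ± 0.45 for the third LYN probe set and -0.50 ± 0.40 for FGR in the negative.

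From day 1 to day 2 the log2 effect was negative in 10 of the 13 member probe sets tested, several of which read the same gene. The share of negative effects over all probe sets was not counted. None passed in limma, where 0 of all 7934 did (0.00%), and 2 had an unadjusted p under 0.05, against 1048 of all (13.2%, 3.76% higher at day 2). None was 2-fold apart between day 2 and day 1, in PonA cells (2.93% of all probe sets were, 0.882% higher) or in untreated cells (3.19%, 1.04% higher). FGR had a day effect of -0.48 ± 0.20 (SE, adjusted p = 0.370), with log2 differences of day 2 over day 1 of -0.77 with PonA and -0.17 untreated. The third FYN probe set went the other way, at 0.74 ± 0.16 (SE, adjusted p = 0.239), with 63.2 at day 2 against 38.3 at day 1 with PonA. The brighter FYN probe sets had effects of -0.44 ± 0.25 and -0.16 ± 0.20, so the FYN probe sets did not share a direction over time.

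Transfected cells were set against untransfected cells in a limma fit over all 6 arrays with terms for PonA and day, in which the lone untransfected array is assumed to vary like the others. Of 15 member probe sets tested none passed, against 21 of 8090 (0.260%, with 0.161% higher and 0.0989% lower in transfected cells), and 1 had an unadjusted p under 0.05, against 1205 of 8090 (14.9%, 8.23% higher in transfected cells). At day 1 without treatment no member was 2-fold apart, as 5.72% of all probe sets were (3.08% higher). The probe set under an unadjusted 0.05 was FGR, whose transfection effect on the log2 scale was 0.63 ± 0.25 (SE, adjusted p = 0.318), and the untransfected array, at 73.3, was the lowest of the 6. YES1 was also lowest there, at 119, and its effect was 0.59 ± 0.29 (SE, adjusted p = 0.404). SRC was highest in untransfected cells, at 91.2 on the first SRC probe set, and the transfection effect was -0.20 ± 0.22 (SE, adjusted p = 0.728). The astroglial marker GFAP was at 103 to 229 on the transfected arrays, against 1533 in untransfected cells, and what moved with it among these kinases was not tested.

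The solvent effect at day 1 rests on 1 ethanol and 1 untreated array, with no replicate check. None of 13 member probe sets above the floor on a side was 2-fold apart, against 175 of 8015 (2.18%, 1.04% higher with ethanol). The largest log2 differences were 0.46 for the first FYN probe set and 0.46 for the third LYN probe set, with 108 with ethanol against 78.6 untreated for the LYN probe set. YES1 was lower with ethanol, at a log2 difference of -0.37.

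The genes whose signal over the 6 arrays was most like that of the second FYN probe set were SCRN1, the doublecortin-like kinase gene DCLK1, the lipoprotein receptor gene VLDLR, the ETS factor gene ETV5 and CCDC85B. Their Pearson r with it on the log2 scale was 0.984 to 0.991, among 4781 genes above the floor on all arrays, all read on the same 6 arrays. An r of at least 0.9 was reached by 122 of these genes. DCLK1 gave 225 and 249.6 with PonA at day 1 and day 2, against 49.6 with ethanol, 31.2 untreated at day 1 and 26.0 untreated at day 2. SCRN1 gave 903 and 888 with PonA, against 753 with ethanol, 679 untreated at day 1 and 615 untreated at day 2. In both genes the PonA arrays were the highest and the untreated array of day 2 the lowest, with a much smaller ratio of highest to lowest in SCRN1.

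Around these kinases and ligases, 70 genes were listed by role, of which 56 were on the array under 1 symbol and 40 were tested for PonA, each by its brightest probe set. Of the 40, 2 rose and 1 fell, against 152 and 133 of 5718 genes, and the median log2 effect was 0.053, against 0.0063 over those genes. The list was put together with earlier results of these data known, so its counts only describe it. The CBL partners held both that rose. SPRY2, a Sprouty protein that binds CBL and dampens receptor tyrosine kinase signalling, gave 202 and 316 with PonA at day 1 and day 2, against 42.7 with ethanol, 27.1 untreated at day 1 and 33.3 untreated at day 2, a log2 effect of 2.86 ± 0.27 (SE, adjusted p = 0.00441). Its relative SPRY1 gave 73.3 and 98.8 with PonA, against 31.2 with ethanol, 34.1 untreated at day 1 and 23.5 untreated at day 2, and its effect was 1.56 ± 0.24 (SE, adjusted p = 0.0207). Both were highest on the PonA arrays by a wide margin. With 1 array of day 2 left out, whichever of the 2, day 1 alone set the SPRY1 effect, at 1.17. The SPRY1 call was then lost. It was also lost with a separate ethanol term, at 1.47 (adjusted p = 0.0783), with the 20th percentile floor (adjusted p = 0.0963) and with no filter (adjusted p = 0.101), and with no filter the SPRY2 call was lost too (adjusted p = 0.0640). With the 60th percentile floor SPRY1 no longer exceeded the floor on enough arrays to be tested, and the SPRY2 effect was 1.81 ± 0.19 (SE). The 2 list genes that passed as higher were then SPRY2 and NEDD9.

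Among 8 tested receptors that CBL proteins can mark for turnover, PDGFRA, the platelet-derived growth factor receptor alpha, fell. It gave 118 and 108 with PonA at day 1 and day 2, against 211 with ethanol, 306 untreated at day 1 and 256 untreated at day 2, a log2 effect of -1.17 ± 0.21 (SE, adjusted p = 0.0330). The PonA arrays were the lowest, and ethanol lay below both untreated arrays. A second PDGFRA probe set had an effect of -0.79 ± 0.23 (SE, adjusted p = 0.114), another one of 0.043 ± 0.17 (SE, adjusted p = 0.926), and the fourth was not tested. The brightest PDGFRA probe set had an effect of -1.25 without the PonA array of day 1, set by day 2 alone. With 1 array of day 2 left out, whichever of the 2, its effect was -1.11, set by day 1 alone. The PDGFRA call was lost in each of these fits. It was also lost with a separate ethanol term, at -0.81 (adjusted p = 0.198), with the 20th percentile floor (adjusted p = 0.128) and with no filter (adjusted p = 0.112). FGFR1 had an effect of 0.60 ± 0.20 (SE, adjusted p = 0.158) on its brightest probe set. Other FGFR1 probe sets had 0.57 ± 0.22, 0.65 ± 0.21 and 0.14 ± 0.16 (SE, adjusted p = 0.221, 0.153 and 0.702).

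No Src substrate or scaffold of 11 tested passed in the reported fit. NEDD9, a docking protein of focal adhesions that Src kinases phosphorylate, gave 506 and 414 with PonA at day 1 and day 2, against 339 with ethanol, 320.0 untreated at day 1 and 183 untreated at day 2, and its effect was 0.86 ± 0.20 (SE, adjusted p = 0.0632). The caveolar protein gene CAV1 gave 1295 and 1668 with PonA, against 911 with ethanol, 939 untreated at day 1 and 849.5 untreated at day 2, and its effect was 0.69 ± 0.19 (SE, adjusted p = 0.0991). In both, as in the first and the second FYN probe sets, the PonA arrays were the highest of the transfected cells. NEDD9 passed with the 60th percentile floor (adjusted p = 0.0313), log2(signal + 16) (adjusted p = 0.0476) and an eBayes trend (adjusted p = 0.0171). It also passed without the ethanol array, at 0.92, and with a PonA-by-day term, at 0.90. Leaving out 1 array of day 2, whichever of the 2, made the NEDD9 effect 0.62, and a separate ethanol term made it 0.71. CAV1 passed with the trend (adjusted p = 0.0195). Of 5 tested phosphatases none passed, and all 5 effects were positive, from 0.039 for PTPN1 to 0.70 ± 0.17 (SE, adjusted p = 0.0803) for PTPRE, a receptor-type phosphatase that can activate Src kinases, and 0.26 ± 0.22 (SE, adjusted p = 0.606) for PTPN12. Over all genes, each by its brightest probe set, 2907 of 5718 effects were positive. For PTPRE the ethanol array of day 1 (24.8) and the untreated array of day 2 (21.6) were under the floor. No other Src-like kinase could be tested, since BLK, FRK, PTK6 and the CSK relative MATK were above the floor on at most 1 array.

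Of 11 tested genes of the SYK family and its partners none passed, and the median log2 effect was -0.046. LAT, the adaptor that ZAP70 phosphorylates in T cells, gave 25.6 and 49.1 with PonA at day 1 and day 2, against 114 with ethanol, 56.6 untreated at day 1 and 72.7 untreated at day 2. The 25.6 lay under that array's floor of 26.5 and was raised to it, so the day 1 differences from PonA are bounds. The log2 effect of LAT was -1.16 ± 0.37 (SE, adjusted p = 0.146), and ethanol alone was 1.01 above untreated cells. With a term of its own for ethanol it passed, at -1.97 (adjusted p = 0.0149), and it also passed without the ethanol array, at -0.83 (adjusted p = 0.0474). It was -0.57 (adjusted p = 0.698) without the PonA array of day 1 and -0.22 (adjusted p = 0.613) with the 60th percentile floor. TEC, a kinase activated downstream of Src kinases, had an effect of 0.43 ± 0.17 (SE, adjusted p = 0.228). The brightest SYK probe set gave 56.3 and 35.2 with PonA at day 1 and day 2. The arrays without PonA gave 64.1 with ethanol, 73.1 untreated at day 1 and 22.0 untreated at day 2. At day 1 the PonA array was thus the lowest of the transfected cells. The 22.0 lay under that array's floor of 23.2. The log2 effect of SYK was 0.097 ± 0.24 (SE, adjusted p = 0.877). Whether this probe set reads the syk construct was not tested.

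**Figure D4:**
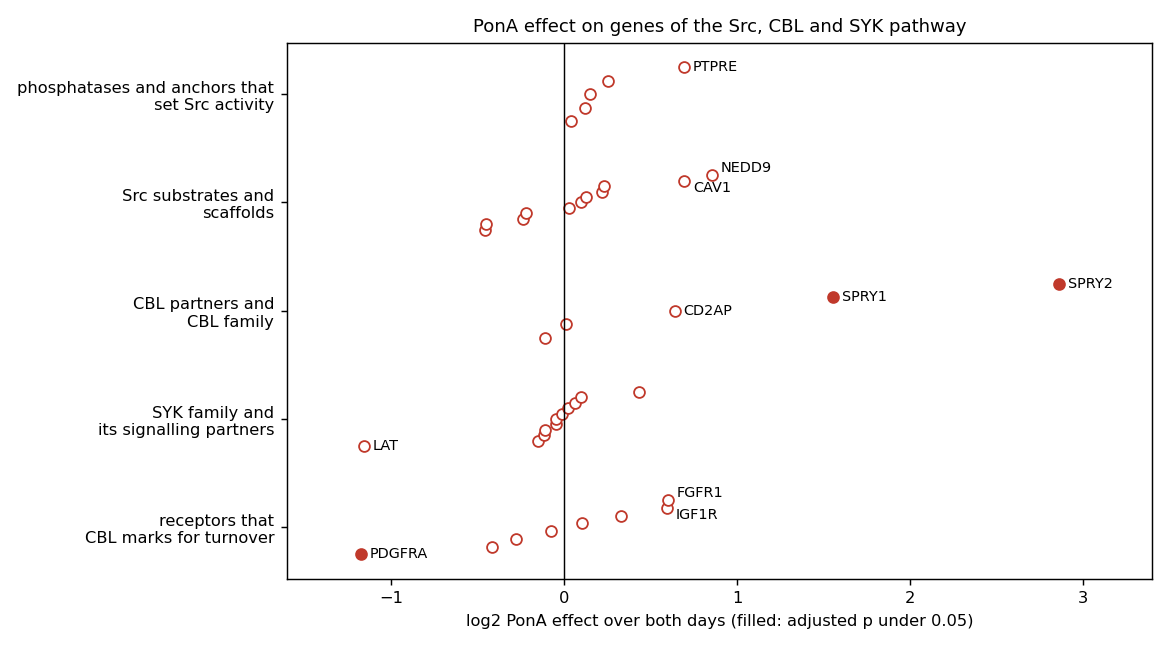
Log2 PonA effect over both days (x axis) of the 40 tested genes around the Src and CBL proteins, by role group (rows), with filled points past an adjusted p of 0.05. SPRY2 at 2.86 and SPRY1 at 1.56 lie far right, PDGFRA at -1.17 far left, and most points lie near 0.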

How the data were processed

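The deposited values are MAS5 signal intensity on a linear scale, made by the authors with MAS5 per the submitters' processing notes; its version and detection calls are not given in the sources used here. The authors had scaled the arrays, since the trimmed mean per array (2% left out at each end) was 150.07 to 150.08. Per the labels' protocols, total RNA was made into biotinylated cRNA.

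Symbols came from the platform annotation, updated by Entrez identifier to RefSeq (GRCh38.p14): 10943 probe sets had 1 symbol, 10934 of them matched, 545 had several and 1070 none, and 67 controls were left out. Each array's 40th percentile served as a floor: lower signals were raised to it before log2 was taken. No further scaling was applied. The tests were limma fits (lmFit and eBayes, limma 3.58.1, R 4.3.3) over every probe set that exceeded the floor on 2 or more arrays of the fit, with Benjamini-Hochberg adjustment, and were checked on simulated data. The simulated noise was independent between arrays and had the same spread for all probe sets. That check therefore cannot show that the p-values hold for these unrepeated arrays. Prior degrees of freedom were 4.48 in the PonA fit. Comparisons of 1 array with 1 array have no p-value and use a 2-fold rule, and a fold against a value under the floor is a lower bound. The number of arrays limits the precision.

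The members and lists were chosen with earlier results of these data known. Named genes are all 9 members, each list gene past the threshold, the 2 largest PonA effects of each role group, and the 5 genes most correlated with the member of largest effect. Any other list gene named was picked after its values were seen. The marker lists were astroglia, haematopoietic cells, neurons, oligodendrocytes, epithelium and endothelium. Of 5 neuronal, 3 oligodendrocyte, 5 epithelial and 4 endothelial markers on the array, 0, 2, 2 and 0 were above the floor on all arrays. Alternatives were other floors (20th and 60th percentile), log2(signal + 16), quantile normalization, no filter, an eBayes trend, other model terms and leaving out each transfected array. With a term for day, leaving out either array of day 2 gives the same PonA effect, set by day 1 alone. Leaving out PonA at day 1 gives the difference of day 2 alone. The equal effects of the fits without an array of day 2 are therefore not separate checks.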

Additional observations from a re-analysis of the deposited data

How the results depend on the processing

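The number of member probe sets past the threshold for PonA, 0 as reported, was 1 (the second FYN probe set) with the floor at the 60th percentile, 1 with log2(signal + 16) and 1 with an eBayes trend, and 0 to 2 over the fits that leave out 1 transfected array, where the 2 (with the first CBLB probe set) came without the ethanol array. It was 0 under the 20th percentile floor, quantile normalization, no filter, a separate ethanol term and a PonA-by-day term. No setting tried gave a member past the threshold for transfection or for day, or 2-fold apart with ethanol. With the 60th percentile floor, an alternative chosen after seeing the data, 2 and not 4 member probe sets had both PonA arrays above the transfected arrays without PonA, since the dim CBLB signals then lie at the floor. Of the genes most like the second FYN probe set, 4 of the 5 were shared under quantile normalization. The list counts of 2 higher and 1 lower became 1 and 0 with the 20th percentile floor, 0 and 0 with no filter, 4 and 1 with the trend and 1 and 1 with the ethanol term (the lower one then LAT, not PDGFRA), and ran over 1 to 3 and 0 to 2 when an array was left out. Over all probe sets, the 402 calls for PonA ranged from 29 with no filter to 725 without the ethanol array, and the 21 for transfection from 0 with no filter to 115 with the trend. Signs turned in 26 alternatives, none of them for a result past the threshold. The PonA effect of the third LYN probe set became -0.0168 under quantile normalization, -0.18 with the ethanol term and -0.0174 with the PonA-by-day term, that of the first LCK probe set -0.0107 with the ethanol term, and the transfection effect of the first CBLB probe set 0.0329 with the 60th percentile floor. With 1 array left out, the PonA effects ran from -0.25 to 0.0784 for the first LYN probe set, -0.0368 to 0.00262 for the second LYN probe set, -0.27 to 0.23 for the third LYN probe set, -0.11 to 0.38 for FGR and -0.13 to 0.14 for CSK. The transfection effects ran from -0.0852 to 0.0165 for the second SRC probe set, -0.15 to 0.22 for the first FYN probe set, -0.0120 to 0.0751 for CSK and -0.18 to 0.0561 for the second CBLB probe set. The day effects ran from -0.78 to 0.00471 for the first FYN probe set, -0.32 to 0.0458 for the second FYN probe set, -0.0291 to 0.30 for the first LYN probe set, -0.23 to 0.27 for the third LYN probe set and -0.30 to 0.31 for YES1. Where no cause is named, the cause was not tested. No paired analysis was possible because each group holds 1 array and no replicate numbers beyond that, although day is a term of the PonA fits. Signal near the floor limits CBL, LCK, the second SRC probe set and the dim FYN and CBLB probe sets. Among the list genes it limits SPRY1, SPRY2, LAT, PTPRE, TEC and SYK, and others that were not named as limited here.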
